A study of Mus musculus with 8 samples.

Results

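The insulin and insulin-like growth factor (IGF) system was followed here through 10 genes of brown adipose tissue: the ligand gene Igf1, the receptor genes Insr and Igf1r, the docking protein genes Irs1 and Irs2, and the binding protein genes Igfbp3, Igfbp4, Igfbp5, Igfbp6 and Igfbp7. They were taken by gene name from a deposited table of 54532 genes, and each name had 1 row. RNA was sequenced from 4 mice labelled TG (CLCF1-ATG), which carry a transgene for the cytokine CLCF1, and from 4 WT mice without it. The sources used here give no age, sex, diet, housing temperature or strain, nor the promoter that drives the transgene. The study asked how CLCF1 impairs brown fat.

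Insulin and IGF-1 bind 2 related receptor tyrosine kinases, which phosphorylate the docking proteins IRS1 and IRS2 and so recruit phosphatidylinositol 3-kinase and AKT. In brown adipocytes this route drives glucose uptake and lipid synthesis, and it is needed for the cells to differentiate. The binding proteins are secreted, hold IGFs outside the cell and either prolong their life or keep them from the receptor. IGFBP7 is a more distant relative that binds IGFs weakly.

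Of the 10 genes, 9 reached 0.5 FPKM (fragments per kilobase of gene, scaled to library size by the authors) in at least 4 libraries and were tested in a fit of all 12508 genes that did so. Igf1r reached it in 2 libraries and was not tested in that fit. In TG mice Igf1, Insr, Irs1, Irs2, Igfbp4, Igfbp5 and Igfbp7 rose, and Igfbp3 and Igfbp6 fell. Against these 7 higher and 2 lower genes stands a background in which 44.1% of all tested genes passed the same threshold, 22.3% higher and 21.8% lower in TG (limma, Benjamini-Hochberg adjusted p under 0.05). The median log2 change was 1.21 over the 9 genes and 0.01 over all tested genes. Irs1 passed the filter through the 4 TG libraries alone, so its place among the tested genes already depended on a difference. The TG values lay wholly above the WT values for 7 of the 10 genes, wholly below them for Igfbp3, and overlapped them for Igf1r and Igfbp6. Among all tested genes 42.6% had no overlap, 22.1% with TG above and 20.5% with TG below.

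**Figure D1:**
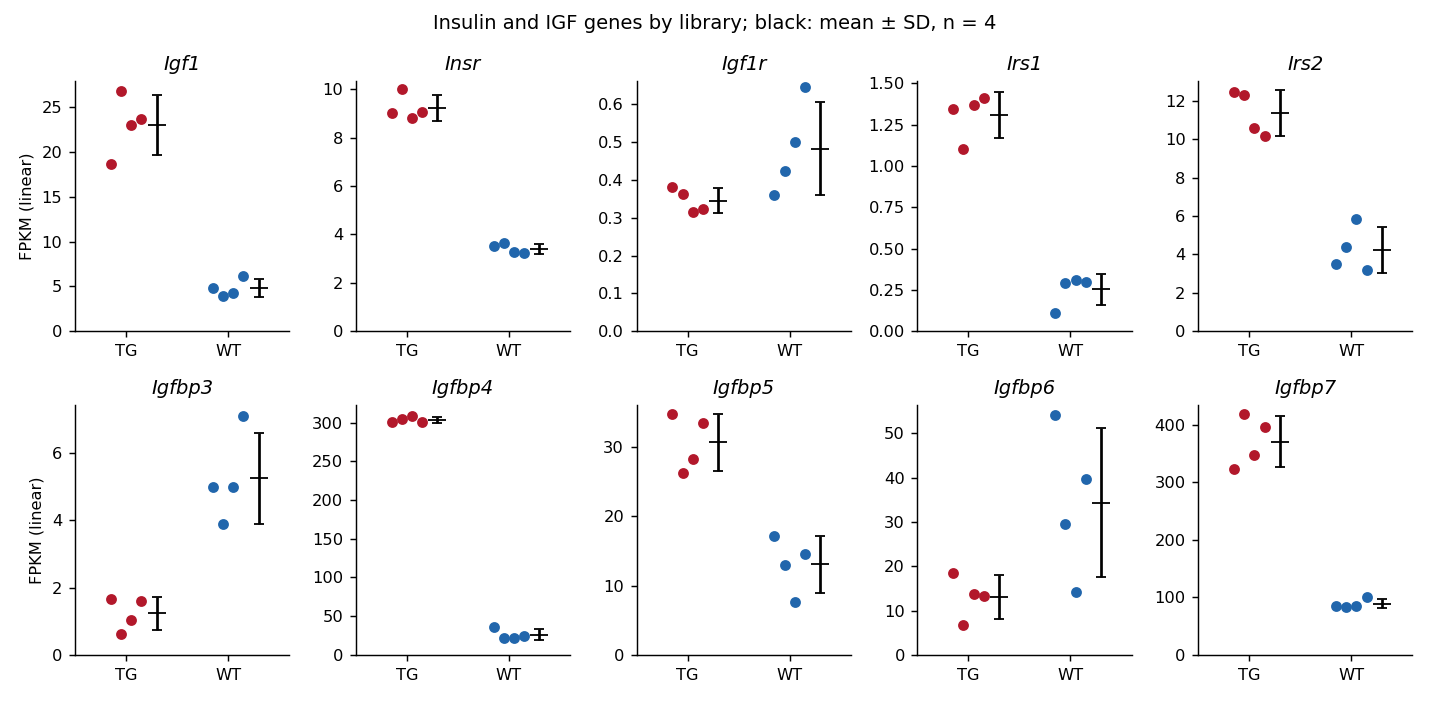
FPKM (linear axes from 0) of the 10 genes, with 1 point per library, TG left of WT, and the mean ± SD (n = 4) in black. Igfbp4 stood at 300 to 309 FPKM in TG and 21.5 to 36.5 FPKM in WT, while Igfbp3 and Igfbp6 had lower means in TG.

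Several facts of the libraries bear on these values. Recovered reads numbered 18494022 to 20183840 per TG library and 13734231 to 15751302 per WT library. Clcf1 stood at 84.5 ± 4.75 FPKM in TG and 2.15 ± 1.28 FPKM in WT (SD, n = 4 each), so every library followed its label. The tissue's defining genes were present: Adipoq averaged 1864 ± 220 FPKM in TG and 650 ± 50.4 FPKM in WT, and Ucp1 82.8 ± 45.3 FPKM in TG and 1420 ± 371 FPKM in WT. Skeletal muscle markers set 2 libraries apart, with summed levels of 1379 FPKM in TG mouse 5 and 2450 FPKM in WT mouse 2, against 116 to 226 FPKM in the other TG mice and 11.5 to 222 FPKM in the other WT mice. Without these libraries 7 genes of the set were higher and 1 was lower, the call of Igfbp6 being lost (adjusted p = 0.0809). Among all tested genes 16.1% were then higher and 16.6% lower. Dividing by all recovered reads in place of the authors' scaling moved the median log2 change of all tested genes to 0.32 and gave 5536 higher and 1442 lower genes, against 2788 and 2725 with FPKM as deposited. Reads of the mitochondrial chromosome made up 6.87% ± 0.547 of all reads in TG and 29.4% ± 5.78 in WT (SD, n = 4 each). Dividing by the reads outside that chromosome gave a median of 0.03, with 2926 higher and 2638 lower genes. The 9 tested genes kept their directions under both divisions, and Igfbp6 kept its call when mitochondrial reads were left out of the divisor (adjusted p = 0.0365).

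The ligand gene Igf1 encodes the growth hormone-dependent growth factor that acts through IGF1R. It lies on the plus strand of chromosome 10 (ENSMUSG00000020053, 87858265 to 87937042, mm10). Its level was 18.7, 26.7, 22.9 and 23.7 FPKM in TG mice 1, 2, 3 and 5, and 4.83, 3.87, 4.25 and 6.15 FPKM in WT mice 1, 2, 3 and 5. The lowest TG library was above the highest WT library. Igf1 rose by 2.06 on the log2(FPKM + 1) scale (SE 0.149, limma adjusted p = 8.53e-06), and the ratio of mean FPKM, TG over WT, was 4.82. The antisense gene Igf1os overlaps it by 5117 bases on the other strand, with means of 0.626 FPKM in TG and 0.218 FPKM in WT. No source used here states whether counting used strand, so reads of the 2 genes cannot be told apart where they overlap.

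The insulin receptor gene Insr (ENSMUSG00000005534) lies on the minus strand of chromosome 8, from 3122061 to 3279617. Its level was 9.01, 9.999, 8.82 and 9.05 FPKM in TG mice 1, 2, 3 and 5, and 3.51, 3.65, 3.26 and 3.22 FPKM in the WT mice of the same numbers. Spread within each group was small, with a coefficient of variation of 5.75% in TG and 6.08% in WT. Insr rose by 1.21 on the log2(FPKM + 1) scale (SE 0.0911, 95% interval 1.01 to 1.42, limma adjusted p = 9.96e-06), and its mean FPKM was 2.71 times as high in TG as in WT.

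Igf1r, the receptor for IGF-1, was the lowest of the 10 genes in TG and the second lowest in WT. It spans 67952827 to 68233668 on the plus strand of chromosome 7 (ENSMUSG00000005533). Its level was 0.382, 0.363, 0.315 and 0.322 FPKM in TG mice 1, 2, 3 and 5, and 0.359, 0.425, 0.502 and 0.645 FPKM in the WT mice of the same numbers. These values rest on 121 to 153 reads per TG library and 71 to 124 reads per WT library, and the groups overlap through WT mouse 1. A two-sided exact permutation test of the FPKM difference over 70 assignments, chosen after seeing that the gene missed the filter, gave p = 0.0857 (n = 4 each). In the limma fit without a filter the log2 change was -0.14, with a 95% interval of -0.32 to 0.05 and an adjusted p of 0.323.

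The receptors differed in their balance within each library, a measure that does not depend on how libraries were scaled. Insr FPKM over Igf1r FPKM was 26.8 ± 2.15 in TG and 7.46 ± 2.14 in WT (SD, n = 4 each). The TG libraries ran from 23.6 to 28.1 and the WT libraries from 4.98 to 9.77, so the groups did not overlap. The log2 ratio was 1.89 higher in TG, with a two-sided exact permutation p = 0.0286 (n = 4 each), the smallest that 4 against 4 allow. Adjusted over the 2 ratios tested, the exact permutation p was 0.0571 (n = 4 each), which does not pass 0.05.

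The docking protein genes Irs1 and Irs2 rose together with Insr. Irs1 (ENSMUSG00000055980, chromosome 1, minus strand, 82233101 to 82291416) stood at 1.34, 1.10, 1.37 and 1.41 FPKM in TG mice 1, 2, 3 and 5, and at 0.111, 0.293, 0.313 and 0.296 FPKM in the WT mice of the same numbers. WT mouse 1 was the lowest, with 12 reads, and every TG library was above every WT library. On the log2(FPKM + 1) scale Irs1 rose by 0.88 (SE 0.105, limma adjusted p = 0.000153), a scale that understates a gene so low. Its mean FPKM was 5.16 times as high in TG as in WT, and with a pseudocount of 0.01 its log2 change was 2.42.

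Irs2 (ENSMUSG00000038894, chromosome 8, minus strand, 10984681 to 11008458) was more abundant than Irs1 in both groups. Its level was 12.5, 12.3, 10.6 and 10.2 FPKM in TG mice 1, 2, 3 and 5, and 3.50, 4.37, 5.86 and 3.20 FPKM in the WT mice of the same numbers. The groups did not overlap, and Irs2 rose by 1.26 on the log2(FPKM + 1) scale (SE 0.159, limma adjusted p = 0.000217). Irs1 FPKM was 0.116 ± 0.0223 of Irs2 FPKM in TG and 0.0611 ± 0.0254 in WT (SD, n = 4 each). The highest WT library, at 0.0924, was above the lowest TG library, at 0.0895. The log2 ratio of Irs1 over Irs2 differed by 1.01, with a two-sided exact permutation p = 0.0571 (n = 4 each), also 0.0571 after adjustment over the 2 ratios.

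**Figure D2:**
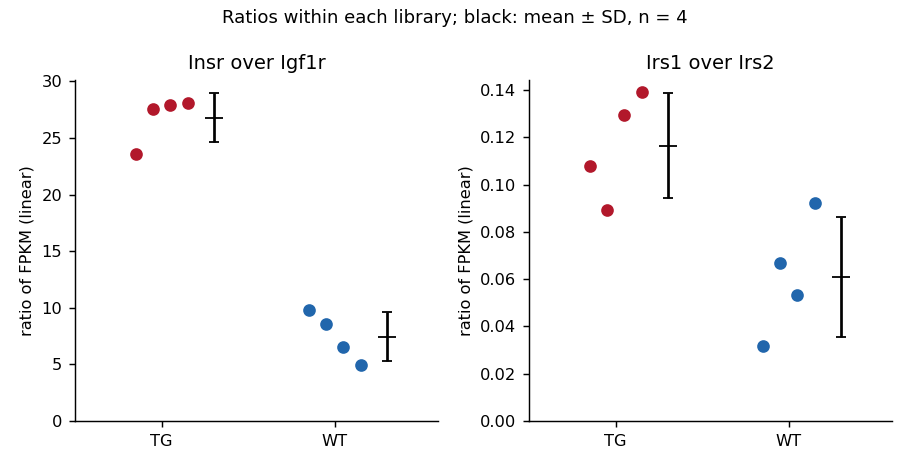
Ratios of FPKM within each library (linear axes from 0), 1 point per library, TG left of WT, with the mean ± SD (n = 4) in black. Insr over Igf1r ran from 23.6 to 28.1 in TG and from 4.98 to 9.77 in WT, whereas the groups overlapped slightly for Irs1 over Irs2.

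The binding protein genes moved in opposite directions, and the 2 most abundant ones in TG were among those that rose. Igfbp4 encodes a carrier that mostly withholds IGFs from their receptor until proteases cleave it. It lies on the plus strand of chromosome 11 (ENSMUSG00000017493, 99041244 to 99054392). Its level was 301, 304, 309 and 300 FPKM in TG mice 1, 2, 3 and 5, and 36.5, 22.4, 21.5 and 24.9 FPKM in the WT mice of the same numbers. TG mice varied little, with a coefficient of variation of 1.23%, against 26.4% in WT. Igfbp4 rose by 3.51 on the log2(FPKM + 1) scale (SE 0.158, 95% interval 3.15 to 3.86, limma adjusted p = 1.12e-06), and its mean FPKM was 11.5 times as high in TG as in WT. Of the 12508 tested genes 25 had a rise at least as large, Igfbp4 included.

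Igfbp7, the weak IGF binder, is a secreted protein also found in the wall of blood vessels. Its gene (ENSMUSG00000036256, chromosome 5, minus strand, 77349240 to 77408041) stood at 322, 418, 346 and 396 FPKM in TG mice 1, 2, 3 and 5, and at 84.2, 83.8, 85.7 and 100.1 FPKM in the WT mice of the same numbers. All TG libraries were above all WT libraries. Igfbp7 rose by 2.05 on the log2(FPKM + 1) scale (SE 0.122, limma adjusted p = 3.12e-06), with a ratio of mean FPKM of 4.19. The neighbouring gene Polr2b shares 85 bases with it on the opposite strand and averaged 9.67 FPKM in TG and 5.08 FPKM in WT.

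Igfbp5, whose product binds to extracellular matrix as well as to IGFs, changed less. Its gene (ENSMUSG00000026185, chromosome 1, minus strand, 72857932 to 72874884) stood at 34.7, 26.3, 28.2 and 33.4 FPKM in TG mice 1, 2, 3 and 5, and at 17.2, 12.9, 7.59 and 14.5 FPKM in the WT mice of the same numbers. The groups did not overlap, WT mouse 3 being the lowest. Igfbp5 rose by 1.21 on the log2(FPKM + 1) scale (SE 0.215, limma adjusted p = 0.00158).

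Igfbp3, the main IGF carrier of blood plasma, fell. Its gene (ENSMUSG00000020427, chromosome 11, minus strand, 7206086 to 7213923) stood at 1.66, 0.634, 1.05 and 1.59 FPKM in TG mice 1, 2, 3 and 5, and at 4.99, 3.89, 5.0 and 7.12 FPKM in the WT mice of the same numbers. Every TG library was below every WT library, with 42 to 124 reads per TG library and 164 to 255 per WT library. Igfbp3 fell by 1.49 on the log2(FPKM + 1) scale (SE 0.196, limma adjusted p = 0.000281), and mean FPKM in TG was 0.235 of that in WT.

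Igfbp6, which prefers IGF-2 to IGF-1, also fell, but with a wide spread. Its gene (ENSMUSG00000023046, chromosome 15, plus strand, 102144362 to 102149511) stood at 18.5, 6.67, 13.8 and 13.3 FPKM in TG mice 1, 2, 3 and 5, and at 54.1, 29.5, 14.3 and 39.7 FPKM in the WT mice of the same numbers. WT mouse 3 lay below TG mouse 1, so the groups overlapped. Igfbp6 fell by 1.26 on the log2(FPKM + 1) scale (SE 0.395, 95% interval -2.15 to -0.38, limma adjusted p = 0.0268). The call was lost without TG mouse 2 (adjusted p = 0.0722), WT mouse 1 (0.0635) or WT mouse 5 (0.0643), and when libraries were divided by all recovered reads (adjusted p = 0.0892, log2 change -0.86), the range over all alternatives being 0.00410 to 0.0899.

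**Figure D3:**
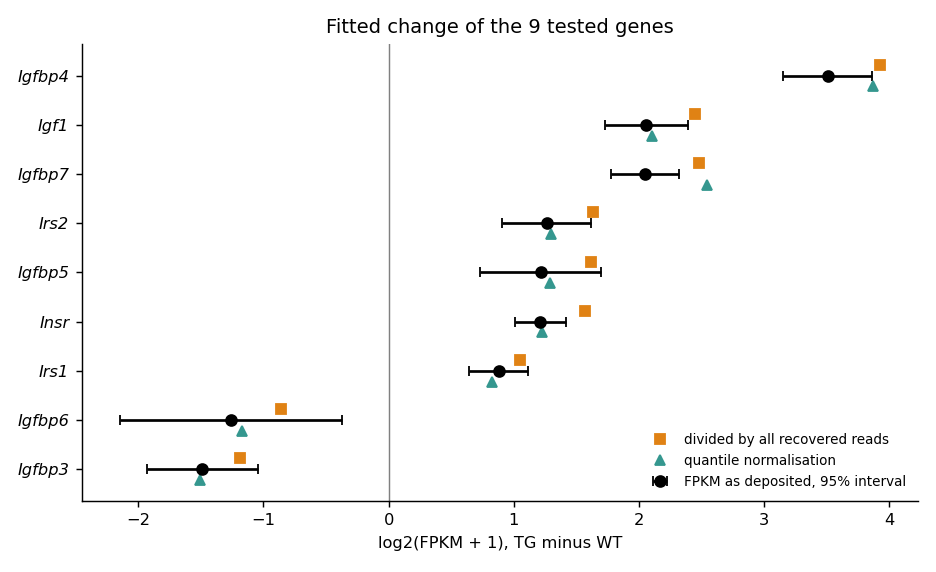
Log2(FPKM + 1) change, TG minus WT, of the 9 tested genes with 95% intervals from limma (n = 4 each), beside the same fit after division by all recovered reads and after quantile normalisation. Each gene keeps its side of 0 under the 3 scalings, with Igfbp4 at 3.51 and Igfbp3 at -1.49 in the values as deposited.

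Summed over the 5 genes, binding protein transcripts reached 719 ± 36.9 FPKM in TG and 167 ± 29.3 FPKM in WT (SD, n = 4 each). Igfbp7 made up 51.4% ± 3.48 of that sum in TG and 53.8% ± 8.69 in WT. Igfbp4 made up 42.3% ± 2.30 of it in TG and 15.7% ± 2.21 in WT, whereas Igfbp6 made up 1.84% ± 0.760 in TG and 19.7% ± 6.95 in WT. Igfbp3 made up 0.173% ± 0.0714 in TG and 3.16% ± 0.712 in WT. Relative to Igf1, the sum was 31.6 ± 3.43 times as high in TG and 35.5 ± 5.34 times as high in WT, and the TG libraries, at 28.2 to 36.3, overlapped the WT libraries, at 30.3 to 40.8. These sums and shares were not tested.

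**Figure D4:**
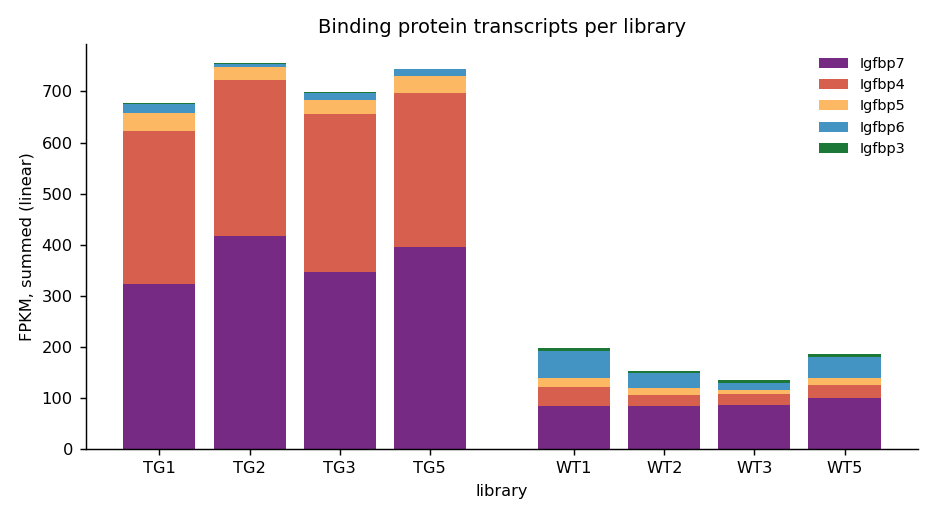
Stacked FPKM (linear axis from 0) of the 5 binding protein genes in each library, TG mice left of WT mice. The sum runs from 678 to 755 FPKM in TG and from 134 to 197 FPKM in WT, with Igfbp4 and Igfbp7 making up most of each TG bar.

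The order of the FPKM levels also differed between the groups. In TG the order ran Igfbp7, Igfbp4, Igfbp5, Igf1, Igfbp6, Irs2, Insr, Irs1, Igfbp3 and Igf1r, and the libraries of 3 neighbouring pairs overlapped: Igfbp5 with Igf1, Igfbp6 with Irs2, and Irs1 with Igfbp3. In WT it ran Igfbp7, Igfbp6, Igfbp4, Igfbp5, Igfbp3, Igf1, Irs2, Insr, Igf1r and Irs1, with overlap between Igfbp6 and Igfbp4 and along the run of Igfbp3, Igf1, Irs2 and Insr. Igf1 thus overlapped Igfbp3 in WT, whereas in TG it averaged 23.0 ± 3.34 FPKM and Igfbp3 1.23 ± 0.484 FPKM (SD, n = 4 each).

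Promoter sequences were compared because 7 genes rose and 2 fell. RefSeq windows of GRCm38.p6 that run from 250 bases before to 50 bases after the start of transcription were found for 9 of the 10 genes, all but Insr. The 250 bases before the start are printed 5′ to 3′ on the strand of the gene for Igfbp4 and Igfbp7, the 2 most abundant genes that rose, for Igf1, the ligand, and for Igfbp3, which fell; capitals mark TATAAA on the sense strand and GGGCGG, the GC box, on either strand.
Igfbp4 (chr11:99040994-99041243, plus strand): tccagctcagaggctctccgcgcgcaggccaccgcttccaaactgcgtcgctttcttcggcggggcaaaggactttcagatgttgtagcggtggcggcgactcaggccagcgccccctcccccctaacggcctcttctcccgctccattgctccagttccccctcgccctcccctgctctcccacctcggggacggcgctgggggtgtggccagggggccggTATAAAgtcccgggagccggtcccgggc
Igfbp7 (chr5:77408046-77408295, minus strand): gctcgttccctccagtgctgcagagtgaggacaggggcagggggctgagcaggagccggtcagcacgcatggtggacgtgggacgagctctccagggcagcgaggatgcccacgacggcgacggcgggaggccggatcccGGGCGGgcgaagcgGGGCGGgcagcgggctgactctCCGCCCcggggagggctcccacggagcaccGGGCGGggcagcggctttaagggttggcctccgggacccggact
Igf1 (chr10:87860861-87861110, plus strand): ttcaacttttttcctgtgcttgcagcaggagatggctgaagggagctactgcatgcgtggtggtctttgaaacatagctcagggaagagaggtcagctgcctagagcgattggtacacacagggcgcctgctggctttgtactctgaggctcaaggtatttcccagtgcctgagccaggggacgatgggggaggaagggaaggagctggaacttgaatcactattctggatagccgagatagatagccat
Igfbp3 (chr11:7213924-7214173, minus strand): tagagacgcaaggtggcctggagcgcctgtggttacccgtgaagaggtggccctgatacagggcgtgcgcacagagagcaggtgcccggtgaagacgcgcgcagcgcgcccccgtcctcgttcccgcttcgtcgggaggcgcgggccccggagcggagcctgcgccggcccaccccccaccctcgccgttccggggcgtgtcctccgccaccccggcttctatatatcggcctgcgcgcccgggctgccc

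TATAAA was found in the window of Igfbp4 alone among the 9, beginning 28 bases before the start, and 8.32% of all 32851 windows hold it. GGGCGG was found in 4 windows, those of Igfbp7, Igf1r, Irs1 and Irs2, against 35.7% of all windows, and the Igfbp7 window held 4 copies. The STAT motif TTCNNNGAA, searched because CLCF1 signals through STAT3, was found in 0 of the 9 windows and in 8.30% of all windows. The FOXO motif TGTTTAC, searched on both strands because FOXO factors act downstream of insulin, was found in 0 of the 9 and in 3.65% of all. CpG dinucleotides per 300-base window had a median of 7 over all windows. Among genes that rose, Igf1 had 6, Igfbp5 10, Igfbp4 27, Irs1 28, Igfbp7 33 and Irs2 41. Of the genes that fell, Igfbp3 had 37 and Igfbp6 had 8, and Igf1r had 48. The count thus did not separate genes that rose from genes that fell. The absence of these letters says nothing of sites outside the windows. The Igf1 window begins at 87860861, inside the gene, which spans 87858265 to 87937042. It belongs to a start downstream of the first, and the bases before 87858265 were not searched. The windows of Igf1r, Igfbp6 and Irs2 lie wholly upstream of the gene spans given above, so they belong to starts other than those spans give.

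Of the 5 binding protein genes 2 have another binding protein gene close by, with few reads or none. Igfbp2 lies 5457 bases from Igfbp5 on chromosome 1, and Igfbp1 lies 3539 bases from Igfbp3 on chromosome 11. Igfbp2 had 5 to 13 reads per TG library and 0 reads in the WT libraries, where 3 reads over the group would give 0.0325 FPKM. Igfbp1 had 0 reads in every library, which allows up to 0.0217 FPKM in TG and 0.0394 FPKM in WT by the same floor. Igf2, the other IGF, had at most 1 read per TG library and 2 per WT library. These 3 genes were named after their values were seen, and none passed the filter. In the limma fit without a filter Igfbp2 had a log2(FPKM + 1) change of 0.29 (adjusted p = 0.00445), a size that depends on the pseudocount, and Igf2 one of -0.02 (adjusted p = 0.531).

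Other genes of the pathway were counted from 9 lists of 70 genes, of which 56 were tested. Of these 25 rose, 10 fell and 21 missed the threshold. Their median log2 change was 0.28, against 0.01 for all tested genes, of which 22.3% were higher and 21.8% lower. With division by all recovered reads 38 were higher and 3 lower, while among all tested genes 44.3% were higher and 11.5% lower. Without TG mouse 5 and WT mouse 2 the counts were 21 higher and 6 lower, beside 16.1% higher and 16.6% lower among all tested genes. Of the 35 calls, 20 held under every alternative that tested the gene, but a filter of 5 FPKM removes 7 of those 20. The 7 calls lost with division by all recovered reads held when only reads outside the mitochondrial chromosome were the divisor.

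Among carriers, Igfals, which encodes the acid-labile subunit that joins IGF and IGFBP3 or IGFBP5 in plasma, rose to 9.45 ± 1.66 FPKM in TG, against 1.70 ± 0.689 FPKM in WT (SD, n = 4 each; log2 change 1.97, limma adjusted p = 4.97e-05). It was the 1 tested gene of 7 in its list. Htra1, a secreted protease that can cleave binding proteins, rose by a log2 change of 0.77, and it shares 49550 bases with Fgfr2 on the opposite strand. Igf2r, the receptor that clears IGF-2, averaged 4.20 ± 0.770 FPKM in TG and 3.51 ± 0.680 FPKM in WT (adjusted p = 0.288).

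Of 9 tested adaptor genes 5 rose and 1 fell. The docking gene Irs3, named after its value was seen, did not pass (log2 change 0.51, limma adjusted p = 0.0563). It averaged 8.50 ± 2.20 FPKM in TG and 5.63 ± 1.30 FPKM in WT (SD, n = 4 each). Its WT mean was above that of Irs2, at 4.24 FPKM. The adaptor gene Shc1 rose by a log2 change of 0.94 and the exchange factor gene Sos1 by 0.41. Sh2b1, an adaptor of the insulin receptor, fell by 0.41, but its log2 change was -0.02 once all recovered reads served as the divisor (adjusted p = 0.930). Among kinase genes of the phosphatidylinositol 3-kinase and AKT step, 4 of 9 rose and 2 fell. Pik3r2 and Pik3r1, regulatory subunits, rose by 0.99 and 0.76, and Pik3cb, a catalytic subunit, by 0.81. Akt1 fell by 0.41, a call lost under the same divisor (adjusted p = 0.988). Without TG mouse 5 and WT mouse 2, the calls of Sos1 (adjusted p = 0.0572), Pik3r1 (0.0593), Sh2b1 (0.0834) and Akt1 (0.0552) were lost.

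In the TSC and mTOR list 2 of 8 fell, Tsc2 by 0.41 and Mtor by 0.48, and 0 rose. Both calls were lost under that divisor too, with adjusted p of 0.80 for Tsc2 and 0.569 for Mtor, and held without mitochondrial reads in it, at 0.0201 for Tsc2 and 0.0255 for Mtor. Both were also lost without TG mouse 5 and WT mouse 2, at 0.0824 for Tsc2 and 0.136 for Mtor. The call of Mtor was lost as well without TG mouse 2 (0.0544), 3 (0.0639) or 5 (0.0718), and without WT mouse 1 (0.0592), 2 (0.0577) or 3 (0.0541).

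Of 9 tested genes that dampen insulin signalling 5 rose and 1 fell. Ptprf, a receptor phosphatase that acts on the insulin receptor, averaged 4.73 ± 0.821 FPKM in TG and 0.119 ± 0.0511 FPKM in WT (SD, n = 4 each; log2 change 2.35, limma adjusted p = 1.87e-06), with 9 to 21 reads per WT library, and it passed the filter through TG alone. Grb10, an adaptor that inhibits the insulin and IGF-1 receptors, rose by 1.03, and Phlpp2, an AKT phosphatase, by 0.56. Trib3, a pseudokinase that binds AKT, fell by 0.62, a call lost under that divisor (adjusted p = 0.107).

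Among metabolic effectors 6 of 12 rose and 1 fell. Srebf1, the lipogenic factor induced by insulin, averaged 105 ± 14.2 FPKM in TG and 19.5 ± 4.35 FPKM in WT (log2 change 2.39). Pde3b, the phosphodiesterase through which insulin restrains lipolysis, rose by 1.28 and the kinase gene Gsk3b by 0.66. Foxo4 fell by 0.58, with an adjusted p of 0.212 under that divisor. Slc2a4, which encodes the insulin-responsive glucose transporter and was named after its value was seen, averaged 49.0 ± 3.0 FPKM in TG and 56.8 ± 9.42 FPKM in WT (adjusted p = 0.252).

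The growth hormone axis, which drives Igf1 in many tissues, split into 3 genes that rose and 3 that fell of 6 tested. Ghr, the growth hormone receptor, averaged 99.5 ± 18.2 FPKM in TG and 28.4 ± 2.26 FPKM in WT (SD, n = 4 each; log2 change 1.76, limma adjusted p = 1.21e-05), and Stat5a, a transcription factor of its signal, rose by 0.87. The feedback inhibitors of the receptor moved the other way. Cish averaged 0.562 ± 0.315 FPKM in TG and 6.69 ± 2.48 FPKM in WT, and Socs2 averaged 0.910 ± 0.213 FPKM in TG and 2.71 ± 0.745 FPKM in WT (log2 change -0.94, limma adjusted p = 0.00109). The other gene that fell was the kinase gene Jak2, named after its value was seen. It averaged 9.25 ± 0.836 FPKM in TG and 21.8 ± 8.27 FPKM in WT (log2 change -1.08, limma adjusted p = 0.00597).

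**Figure D5:**
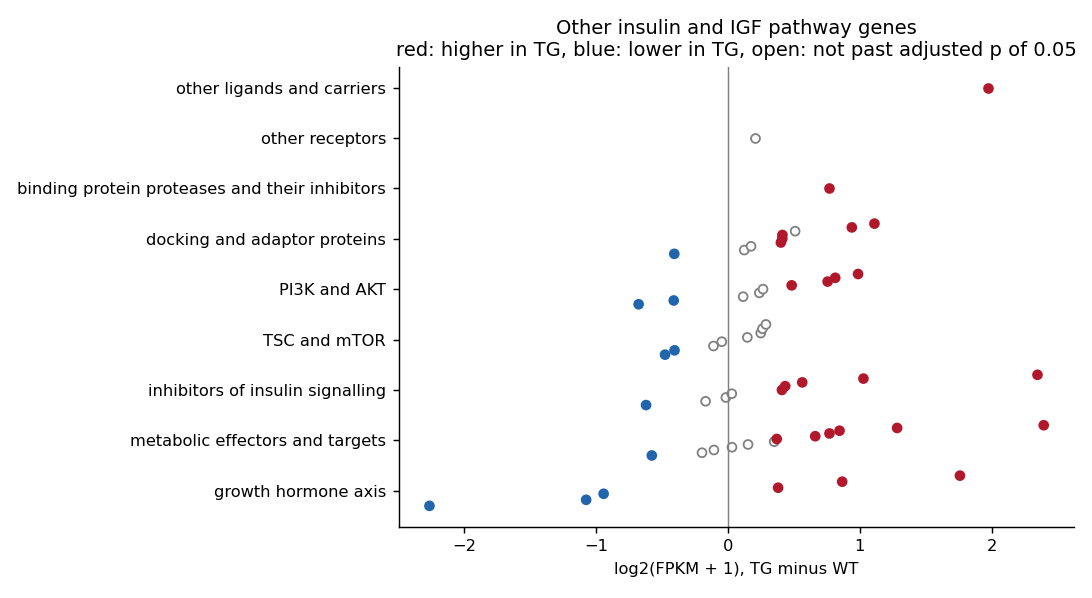
Log2(FPKM + 1) change, TG minus WT, of the 56 tested pathway genes outside the 10, in 9 lists, with 1 point per gene, red for higher and blue for lower in TG at an adjusted p under 0.05, and open for genes that did not pass. Red points outnumber blue ones, 25 against 10, and the growth hormone axis has 3 of each.

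Brown adipose tissue holds several cell types, and in bulk RNA fewer cells of a type cannot be told apart from less RNA per cell. Endothelial markers fell in 7 of 7 genes, their summed level being 22.3 to 41.6 FPKM in TG and 128 to 282 FPKM in WT. Of the 9 tested genes of the set, 2 also fell, Igfbp3 and Igfbp6, and 7 rose, Igfbp7 among them. Of 7 pericyte and smooth muscle markers 5 fell and 1 rose, with sums of 33.5 to 60.0 FPKM in TG and 114 to 144 FPKM in WT. Of 7 macrophage markers, a cell type that can make Igf1, 3 rose and 0 fell, with sums of 179 to 233 FPKM in TG and 114 to 202 FPKM in WT. Of 6 shared adipocyte markers 5 rose, with sums of 6814 to 9650 FPKM in TG and 3729 to 4808 FPKM in WT. Of 6 brown adipocyte markers 5 fell, with sums of 593 to 996 FPKM in TG and 6501 to 9143 FPKM in WT. Of 7 neutrophil markers 4 were tested and fell, with sums of 4.22 to 26.7 FPKM in TG and 13.5 to 394 FPKM in WT. The part of these markers in the changes of the 10 genes was not tested.

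Fibroblast and preadipocyte markers split, with 3 of 8 higher and 1 lower, and sums of 188 to 274 FPKM in TG and 116 to 207 FPKM in WT. In WT mice 1, 5, 2 and 3 the sums were 207, 201, 129 and 116 FPKM and Igfbp6 stood at 54.1, 39.7, 29.5 and 14.3 FPKM, so both had the same order over 4 libraries. Among TG mice the highest and the lowest library, mouse 1 and mouse 2, were the same for both, but mice 3 and 5 had opposite orders. Igfbp5, which rose, had the order of the sums in both groups. It stood at 17.2, 14.5, 12.9 and 7.59 FPKM in WT mice 1, 5, 2 and 3. In TG mice 1, 5, 3 and 2 it stood at 34.7, 33.4, 28.2 and 26.3 FPKM, beside sums of 274, 262, 229 and 188 FPKM. Mesothelial markers were near 0, with sums of at most 0.638 FPKM in TG and 1.25 FPKM in WT. Of 5 hepatocyte markers 2 rose, Cyp2e1 and Serpina1a, with list sums of 87.0 to 387 FPKM in TG and 62.0 to 122 FPKM in WT. The defining hepatocyte marker Alb reached at most 0.107 FPKM in TG and 0.485 FPKM in WT. The orders within groups were compared after the values were seen, and 4 libraries can share an order by chance. In WT, Igf1 also had the order of the macrophage sums and Igfbp3 that of the endothelial sums, but neither match held in TG. The defining fibroblast marker Pdgfra was the 1 that fell (log2 change -0.53, limma adjusted p = 0.0283). Whether these cell types took part in the change of Igfbp6, Igfbp5, Igf1 or Igfbp3 was not tested.

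The profiles nearest to Igfbp4 and Igfbp3 were sought among 9517 protein-coding genes, by the root mean square difference of log2(FPKM + 1), centred on the WT mean, over the 8 libraries. Nearest to Igfbp4 was Gas6, a ligand of TAM receptor kinases, at 0.186, with 272 ± 29.7 FPKM in TG and 21.9 ± 3.73 FPKM in WT (SD, n = 4 each). Endou followed at 0.225 and Fam83a at 0.232. Nearest to Igfbp3 were Tpm4, a tropomyosin, at 0.109, Tnfaip2 at 0.159 and Cdc42ep3 at 0.170. Tpm4 averaged 42.6 ± 8.08 FPKM in TG and 123 ± 18.4 FPKM in WT. These distances describe the 8 libraries and carry no test.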

How the data were processed

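Brown adipose tissue of 4 TG and 4 WT mice was profiled by RNA sequencing from TRIzol RNA with an Illumina TruSeq kit, per the labels' protocols. The submitters' processing notes name mm10 as the build, with featureCounts 1.5.0-p3, HISAT2 2.0.5 and bcl2fastq as tools. No source used here gives the annotation release, strand setting or scaling divisor. The authors deposited FPKM per gene. In each library 1 constant turned FPKM multiplied by length into whole reads (largest distance 1.61e-07). Their totals were 0.822 to 0.883 of the implied divisor in TG and 1.02 to 1.22 of it in WT, so the deposited FPKM hold a scaling beyond the library total. Floors (3 reads over a group) cover counting error only.

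TG was compared with WT by limma 3.58.1 (R 4.3.3, intensity trend, two-sided) on log2(FPKM + 1). Genes entered with 0.5 FPKM or more in 4 or more libraries, and p-values were adjusted over all of them by Benjamini-Hochberg at 0.05. The procedure was tested on simulated data. Ratios and Igf1r were compared with exact permutation tests in scipy 1.17.1. Mice carry the numbers 1, 2, 3 and 5 in both groups, but no label ties equal numbers together. Alternatives changed the pseudocount, filter, scaling, variance model, test (voom on recovered reads), block and libraries. Named are the 10 genes, checks of genotype and tissue, up to 4 genes per pathway list with the lowest p (1 that the rule picks is not reported here), and the 3 nearest profiles of the strongest gene in each direction. Members, lists and tests were chosen with earlier results of these data known. Figures were drawn with matplotlib 3.10.9.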

Additional observations from a re-analysis of the deposited data

Results flagged for a closer look

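Dixon's test for a sample far from the other 3 was applied to 26 groups of 4 values, of the 10 genes and of 3 ratios, and chance flags about 1 in 20 such groups. It marked 3. Irs1 in WT mouse 1, at 0.111 FPKM, lay below the other WT mice, at 0.293 to 0.313 FPKM, with a gap of 0.901 of the group's range. Igfbp7 in WT mouse 5, at 100.1 FPKM, lay above the other WT mice, at 83.8 to 85.7 FPKM, with a gap of 0.882 of the range. Insr over Igf1r in TG mouse 1, at 23.6, lay below the other TG mice, at 27.6 to 28.1, with a gap of 0.884 of the range. Each of these libraries stayed on its own group's side.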

How the results depend on the processing

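Of 187 refits of the 9 tested genes under 21 alternatives, 0 changed direction and 179 kept the call; all 8 that did not concern Igfbp6, whose call was also lost with no filter, the rescaling without abundant genes and voom (adjusted p = 0.0811, 0.0899 and 0.0773). Igfbp3 and Irs1 are left out by a filter of 5 FPKM, under which 3148 genes were called in all, 1445 higher and 1703 lower, against 5513 in the fit as reported, since fewer genes were tested. Leaving out 1 library at a time gave 4569 to 5562 called genes. The log2 ratio of Insr over Igf1r was 1.71 to 2.03 higher in TG with 1 library left out, where 3 against 4 cannot go below an exact permutation p of 0.0571. It was 1.95 without WT mouse 2 and TG mouse 5 (exact permutation p = 0.1, the smallest 3 against 3 allow). With the replicate number as a block it was 1.89 (exact permutation p = 0.125, the smallest 4 pairs allow). Correlations of deviations from the group mean were -0.238 to 0.0373 for same-numbered libraries. The highest of any pair, 0.387, joined TG mouse 5 and WT mouse 2. With 4 libraries per group these values cannot decide whether equal numbers were paired. Limma with the replicate block called 9 of the 10 genes, beside 4847 of all 12508 tested genes, 19.1% higher and 19.7% lower. With the rescaling without abundant genes 5287 genes were higher and 1546 lower, and with voom 5629 and 1447. Among the 9 tested genes Irs1 moved most with scaling, pseudocount and test, its log2 change running from 0.83 with quantile normalisation to 2.87 with voom. Depth limits Igf1r, at 71 to 153 reads per library, and Irs1 in WT, at 12 to 38.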
